A study of Mus musculus with 8 samples.

Results

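The genes described here encode the enzymes and shared subunits that methylate lysine 4 of histone H3 (H3K4), together with the H3K27 demethylase *Kdm6b*. They were chosen as a list of 10 genes: *Kmt2a*, *Kmt2b*, *Kmt2c*, *Kmt2d*, *Wdr5*, *Ash2l*, *Rbbp5*, *Dpy30*, *Men1* and *Kdm6b*. Array probes were taken as members if their RefSeq accession belonged to one of these genes. This gave 14 probes of 9 genes, of 20660 genes matched in all, and all 14 probes were well above background on all 8 arrays. No entry was matched to *Kmt2a* by accession, so it was not analysed here.

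RNA of 8 mouse embryos, whole and at embryonic day 8.5 (E8.5), was hybridised to 8 one-colour Agilent arrays. Every embryo carried 1 copy of the hypomorphic *Eed* allele (Eedl7Rn5-1989SB, mouse background C57bl6/129) and had a wild-type mother. The fathers were homozygous for this allele for 4 embryos (HOM father) and heterozygous for the other 4 (HET father), and each father group held 2 female and 2 male embryos. The comparison therefore asks whether offspring of the same genotype differ with the amount of functional EED present in the father's germline. The hypomorphic allele lowers EED function without removing it. The stock was described as also carrying the *Oct4*GFP transgene. Embryos had been matched for stage and size from photographs. Fewer sires than embryos were used and the files name none of them, so p-values measure the spread between embryos that may share a sire. HOM father replicates 3 and 4 share the leading number of their source names, as do HET father replicates 1 and 2. What this source number stands for is not stated. The 4 embryos of each father group shared 1 slide, so slide and father cannot be told apart.

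Trithorax-group and Polycomb-group proteins act in opposition on developmental genes. PRC2, of which EED is a core subunit, places H3K27 methylation at silent genes, whereas KMT2 complexes place H3K4 methylation at active promoters and enhancers. The catalytic KMT2 subunit is joined by the core of WDR5, RBBP5, ASH2L and DPY30, and KMT2A and KMT2B also bind menin, the product of *Men1*. KDM6B removes methyl groups from H3K27, the mark that PRC2 places. In the early embryo these complexes are known for maintaining *Hox* gene activity along the body axis.

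KMT2A, KMT2B and CXXC1 carry CXXC domains, which bind unmethylated CpG dinucleotides, so CpG content was read in the promoters of the members themselves. RefSeq windows on build GRCm38.p6 were matched for 7 of the 10 genes, with 12 start sites. None was matched for *Kmt2b*, *Ash2l* or *Kdm6b*. In the 250 bases before each start, 7 of 12 windows (58.3%) had over 50% GC and an observed over expected CpG ratio above 0.6. Over all 32851 windows of the same length this share was 30.8%. Both shares count windows and not genes, and the member windows of *Men1* and of the inner *Dpy30* starts overlap each other. The CpG count was between 1 and 48 per window, with *Kmt2c* at 48, *Kmt2a* at 29 and *Wdr5* at 12. The windows of *Dpy30* are shown because its 2 probes represent different RefSeq transcripts, and its 4 starts fall into an outer start with 1 CpG and a cluster of 3 inner starts with 21, 28 and 34 CpGs. The outer start and the nearest inner start, which has the 21 CpGs and lies 7511 bases away, are printed. The window of *Men1* is shown because 1 of its probes separated the groups, and it held 8 CpGs. The strand is minus for *Dpy30* and plus for *Men1*, each sequence reads 5′ to 3′ towards the start, and capitals mark CpG, a palindrome found equally on both strands.
*Dpy30* outer start, chr17:74323945-74324194: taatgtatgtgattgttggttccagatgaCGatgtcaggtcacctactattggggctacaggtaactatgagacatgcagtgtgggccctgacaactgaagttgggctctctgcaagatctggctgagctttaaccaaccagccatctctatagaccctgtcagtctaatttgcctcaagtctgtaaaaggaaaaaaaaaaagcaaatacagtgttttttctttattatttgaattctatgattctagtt
*Dpy30* inner start, chr17:74316434-74316683: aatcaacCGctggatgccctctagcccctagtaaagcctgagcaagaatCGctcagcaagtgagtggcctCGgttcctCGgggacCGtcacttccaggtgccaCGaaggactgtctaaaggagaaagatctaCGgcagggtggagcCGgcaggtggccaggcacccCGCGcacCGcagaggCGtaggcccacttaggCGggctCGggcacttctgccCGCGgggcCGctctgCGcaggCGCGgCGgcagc
*Men1* first start, chr19:6334729-6334978: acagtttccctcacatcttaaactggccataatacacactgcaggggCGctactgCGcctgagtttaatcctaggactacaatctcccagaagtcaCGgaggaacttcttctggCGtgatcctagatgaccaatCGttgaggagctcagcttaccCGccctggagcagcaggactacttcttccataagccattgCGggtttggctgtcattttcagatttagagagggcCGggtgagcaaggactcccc
The tables used here do not tie a start to an array probe, and the CpG counts describe letters in these windows only.

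In the arrays as a whole, 51.9% to 60.8% of spots were well above background, and arrays correlated at 0.988 to 0.993 within and 0.982 to 0.992 between father groups. Markers of neural tube, somite, heart, yolk sac and primitive erythroid cells were above background on all 8 arrays, as were 2 of 3 tailbud markers. Signals from decidua markers, a maternal tissue, were highest in HOM father replicates 2 and 3, with summed levels of 4.29 and 4.63 against 1.39 to 2.66 with a HET father. The high sums of HOM father replicates 2 and 3 were carried by *Prl8a2*, at 4.14 and 4.45. *Dcn* changed by −0.06 and was lowest in HOM father replicate 2, at 0.91, and *Prl3c1* was not above background on any array. In HET father replicates 3 and 4, which had the lowest sums, *Dcn* at 1.17 and 1.35 was above *Prl8a2* at −1.42 and −3.99. Trophoblast markers summed to −0.36 to 2.83 with a HOM father and −1.16 to 0.82 with a HET father, and *Tpbpa* was not above background on any array. The 4 neural tube markers summed to 3.37 to 3.71 with a HOM father and 3.76 to 3.97 with a HET father, so these groups did not overlap. The sum was carried by *Sox3* (3.13 against 3.43), the 1 marker of the list without overlap. *Sox1* and *Pax6* overlapped between the groups, *Sox2* changed by 0.07, and none of the 4 was called. The part of these marker levels in the results below was not tested. *Eed* itself measured 4.72 ± 0.06 with a HOM father and 4.71 ± 0.05 with a HET father (SD, n = 4), a change of 0.01 with an adjusted p of 0.870 in limma, whose sign turned under median scaling and without HOM father replicate 2 or HET father replicate 4. This probe measures RNA and does not check the point mutation.

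Of the 14 member probes, 1 was lower and none was higher with a HOM father at an adjusted p below 0.05 (limma, Benjamini-Hochberg over all 29732 tested probes). The lower probe was that of *Kdm6b*. The called share of 7.14% compares with 21% of all tested probes, of which 12.3% were higher and 8.69% lower. No member probe passed the limits of the study's methods, an adjusted p below 0.01 with at least a 2-fold change, which 1.26% of all tested probes passed in limma. An unadjusted p below 0.05 was found for 2 of 14 member probes (14.3%), against 34.8% of all tested probes. The 4 HOM father embryos did not overlap the 4 HET father embryos at 2 of 14 probes (14.3%), against 27.1% of all tested probes. Signals are given as log2 values relative to the 75th percentile of each array, so that 0 is that percentile, and every change is the mean with a HOM father minus the mean with a HET father.

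The median change over the 14 probes was −0.06, beside −0.02 over all tested probes, and it turned to 0.01 under quantile normalisation. The 95% confidence interval lay within 1 log2 unit of 0 for 13 of the 14 probes and within 0.5 for 12. Scaling each array to its median moved the medians of all probes and of the members alike by −0.19, to −0.21 and −0.25, turned the sign of all 6 positive member changes, and called 8 members lower. It left 18.4% of all called probes higher, against 58.6% in the reported setting. The spread within father groups had a median of 0.0735 over the members and 0.129 over all tested probes. For 11 of the 14 members the spread was below that median of all probes. Those above it were the *Kmt2d* probes, the dimmest of the members, and the spread was not compared with probes of like signal.

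**Figure D1:**
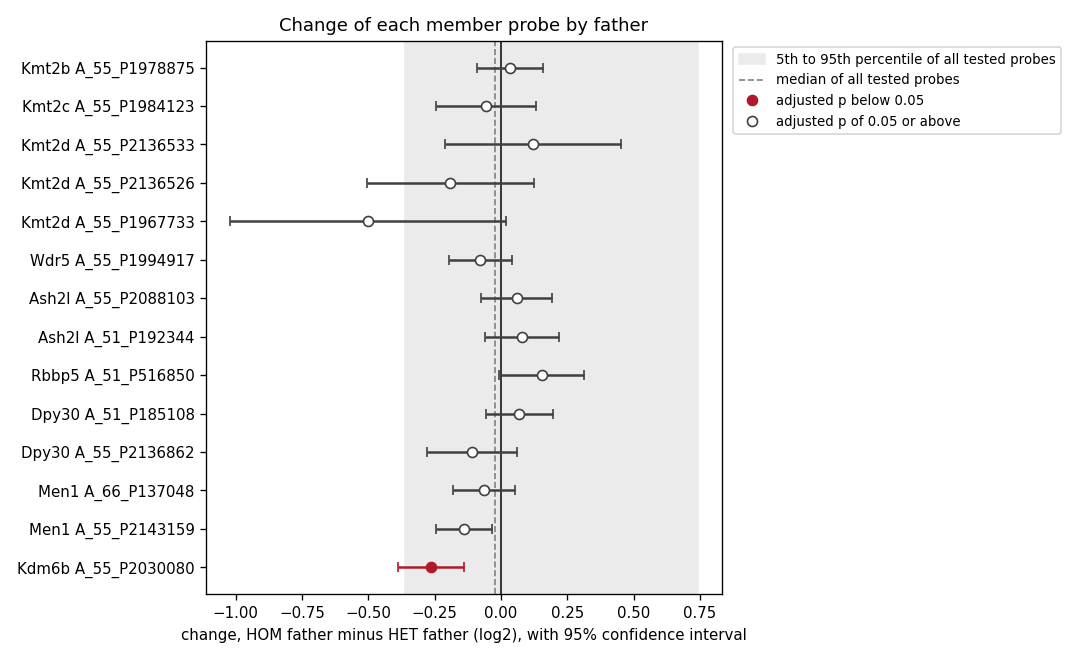
The change of each member probe (HOM father minus HET father, log2) is drawn with its 95% confidence interval, and the grey band runs from the 5th to the 95th percentile of all tested probes, −0.36 to 0.74. *Kdm6b* at −0.27 is the filled point, its interval ends at −0.14, and the widest interval belongs to the dimmest *Kmt2d* probe.

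*Kdm6b* encodes a demethylase that removes di- and trimethylation from H3K27 and lies at chr11:69398508-69420367 (GRCm38.p6). Its probe measured 2.05, 2.16, 2.13 and 2.17 in HOM father replicates 1 to 4, and 2.34, 2.49, 2.35 and 2.39 in HET father replicates 1 to 4. Every HOM father embryo was below every HET father embryo. The means were 2.13 ± 0.06 and 2.39 ± 0.07 (SD, n = 4), a change of −0.27 (SE 0.05, 95% interval −0.39 to −0.14), or 1.20-fold lower, with an adjusted p of 0.0124 in limma. The difference was −0.24 between the females and −0.29 between the males of the groups. In bulk embryos, fewer cells of a type and less RNA per cell cannot be told apart, and the summed neural tube level, carried by *Sox3*, was lower in all 4 HOM father embryos, as given above. Without HOM father replicates 2 and 3, which had the highest summed decidua level, the change was −0.28 with an adjusted p of 0.0606 in limma. Without the filter on dim probes the change was −0.27 with an adjusted p of 0.0712 in limma, over 55644 probes.

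**Figure D2:**
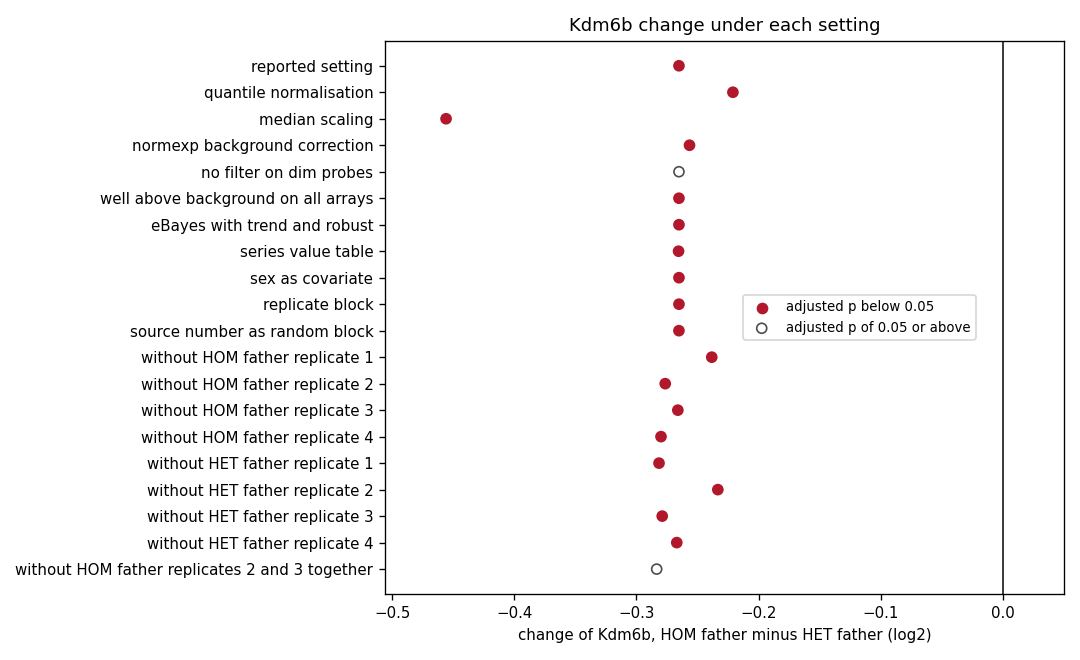
The change of *Kdm6b* (HOM father minus HET father, log2) is plotted for the reported setting and 19 alternatives, with filled points for an adjusted p below 0.05. The change stayed below 0 throughout, between −0.46 and −0.22, and 17 of the 19 alternatives kept the call.

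*Men1* encodes menin, the adaptor of the KMT2A and KMT2B complexes, and lies at chr19:6334979-6340894, directly behind the window printed above. Probe A_55_P2143159 measured 2.81, 2.80, 2.74 and 2.87 with a HOM father and 2.97, 2.94, 2.95 and 2.91 with a HET father. Its groups did not overlap, although the closest embryos were 2.87 and 2.91. The change was −0.14 (SE 0.05, 95% interval −0.24 to −0.03), with an adjusted p of 0.0667 in limma. Over 19 alternative settings the adjusted p ranged from 0.00779 to 0.282, and 3 of them passed 0.05. The brighter probe of the same accession, A_66_P137048, measured 3.74, 3.79, 3.66 and 3.73 with a HOM father and 3.77, 3.87, 3.79 and 3.74 with a HET father. These groups overlapped, and the change was −0.06 (SE 0.05, adjusted p = 0.420, limma). The changes of both probes differed by 0.08, which an exact permutation test over the 8 embryos (two-sided) gave a p of 0.114, or 0.214 after adjustment over the 6 probe pairs.

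**Figure D3:**
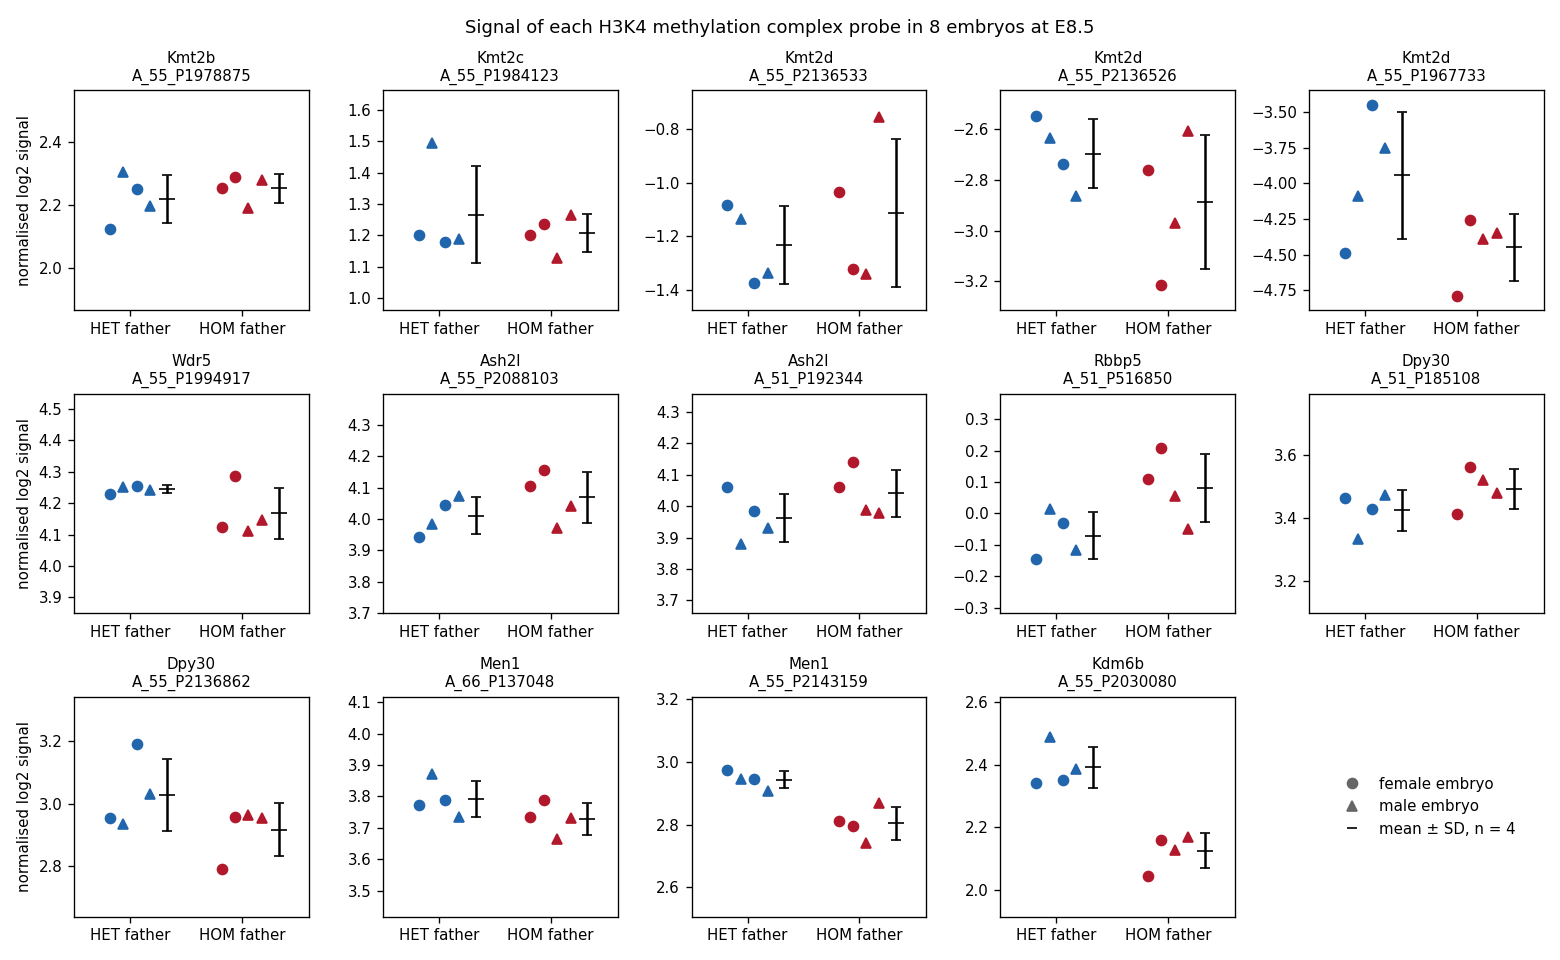
The normalised log2 signal (0 is the 75th percentile of the array) is plotted for each of the 14 member probes in the 8 embryos, with circles for females, triangles for males and bars for the mean ± SD of 4 embryos. *Kdm6b* and *Men1* probe A_55_P2143159 are the panels without overlap between the groups, and in the *Kmt2c* panel HET father replicate 2 stands apart at 1.50.

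The catalytic subunits were *Kmt2b*, *Kmt2c* and *Kmt2d*. *Kmt2b* (chr7:30568855-30589056), whose product places H3K4 trimethylation at promoters, measured 2.25, 2.29, 2.19 and 2.28 with a HOM father and 2.12, 2.30, 2.25 and 2.20 with a HET father. The groups overlapped, with a change of 0.03 (SE 0.05, 95% interval −0.09 to 0.16, adjusted p = 0.705, limma). *Kmt2c* (chr5:25271795-25498855) encodes an enhancer-associated H3K4 monomethyltransferase. It measured 1.20, 1.24, 1.13 and 1.27 with a HOM father and 1.20, 1.50, 1.18 and 1.19 with a HET father. The change was −0.06 (SE 0.08, adjusted p = 0.656, limma), and it was 0.02 without HET father replicate 2.

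*Kmt2d* (chr15:98831669-98874077) encodes the paralogue of KMT2C, also an enhancer enzyme, and had 3 probes of 1 accession. The brightest, A_55_P2136533, measured −1.04, −1.32, −1.34 and −0.75 with a HOM father and −1.08, −1.14, −1.38 and −1.34 with a HET father, so the groups overlapped. Its change was 0.12 (SE 0.14, adjusted p = 0.595, limma), and it was −0.00013 without HOM father replicate 4. Probe A_55_P2136526 had means of −2.89 ± 0.26 and −2.70 ± 0.14 (SD, n = 4) and a change of −0.19 (SE 0.14, adjusted p = 0.360, limma). The dimmest probe, A_55_P1967733, measured −4.79 to −4.26 with a HOM father and −4.49 to −3.45 with a HET father, and its change of −0.50 had the widest interval of the members, −1.02 to 0.02. The adjusted p of that probe was 0.158 in limma, and 0.0471 with a change of −0.68 without HET father replicate 1. The mean of the 3 probes changed by −0.19, opposite in sign to the brightest probe. Changes of the brightest and the middle probe differed by 0.31, with an exact permutation p of 0.0286 (two-sided, 8 embryos), the smallest this design allows, and 0.0857 after adjustment over 6 pairs.

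The core subunits *Wdr5*, *Ash2l*, *Rbbp5* and *Dpy30* are shared by all KMT2 complexes. *Wdr5* (chr2:27515147-27536535), the scaffold of the core, measured 4.13, 4.29, 4.11 and 4.15 with a HOM father and 4.23, 4.25, 4.26 and 4.24 with a HET father. Of the HOM father embryos, 3 were below all HET father embryos and replicate 2 was above them. The change was −0.08 (SE 0.05, 95% interval −0.20 to 0.04, adjusted p = 0.331, limma), and it turned to 0.0026 under quantile normalisation. *Ash2l* (chr8:25816000-25847694), which stimulates the methyltransferase, had means of 4.07 ± 0.08 and 4.01 ± 0.06 at probe A_55_P2088103 (SD, n = 4). The second *Ash2l* probe, A_51_P192344, had means of 4.04 ± 0.07 and 3.96 ± 0.08. These probes gave like changes, 0.06 and 0.08, with adjusted p of 0.515 and 0.396 in limma and a difference between them of −0.02 (exact permutation p = 0.800).

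*Rbbp5* (chr1:132477348-132505665), which binds the catalytic domain together with ASH2L, had the most positive change of the members. It measured 0.11, 0.21, 0.06 and −0.05 with a HOM father and −0.15, 0.01, −0.03 and −0.12 with a HET father. HOM father replicate 4 was within the HET father range and the other 3 HOM father embryos were above it. The change was 0.15 (SE 0.07, 95% interval −0.01 to 0.31, adjusted p = 0.160, limma), and −0.04 under median scaling.

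*Dpy30* (chr17:74299474-74323944), a small subunit that joins the core through ASH2L, had probes for 2 RefSeq transcripts. Probe A_51_P185108 measured 3.41, 3.56, 3.52 and 3.48 with a HOM father and 3.47, 3.33, 3.43 and 3.47 with a HET father, a change of 0.07 (SE 0.05, adjusted p = 0.410, limma). Probe A_55_P2136862 measured 2.79, 2.96, 2.96 and 2.96 with a HOM father and 2.95, 2.94, 3.19 and 3.03 with a HET father, a change of −0.11 (SE 0.07, adjusted p = 0.329, limma). Both pairs of groups overlapped. The difference between the 2 probes was 0.58 ± 0.04 with a HOM father and 0.40 ± 0.12 with a HET father (SD, n = 4). It was larger in every HOM father embryo than in any HET father embryo, with an exact permutation p of 0.0286, the smallest possible, and 0.0857 after adjustment over 6 pairs. The mean of both probes changed by −0.02.

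Embryo sex was balanced over father groups and slides. No member probe differed between females and males at an adjusted p below 0.05 in limma with father as a covariate, against 0.121% of all tested probes, and the lowest adjusted p of the members was 0.914. The 1 member probe with an unadjusted p below 0.05 (7.14%, against 5.22% of all tested probes) was *Ash2l* A_51_P192344, at 4.06 ± 0.06 in females and 3.94 ± 0.05 in males (SD, n = 4). Female minus male changes ranged from −0.10 to 0.12 over the members. The interaction of father and sex passed an adjusted p below 0.05 in limma for none of the 14 probes, against 0.0639% of all tested probes, and none had an unadjusted p below 0.05, against 4.51% of all. The father difference had the same sign in both sexes for 11 of 14 probes. This share was not computed over all tested probes, and both sexes of a father group lay on the same slide. With 2 embryos in each cell, the *Rbbp5* differences of 0.25 in females and 0.06 in males gave an unadjusted interaction p of 0.185 in limma, the lowest of the members.

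**Figure D4:**
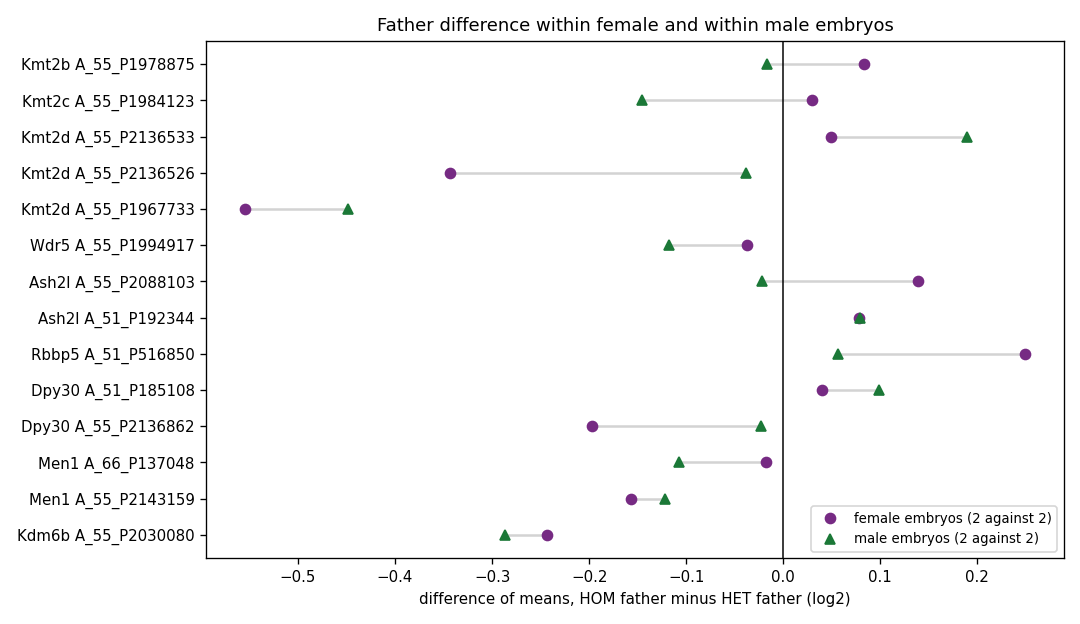
The father difference (HOM father minus HET father, log2) is drawn for each member probe within the 4 female embryos (circles) and within the 4 male embryos (triangles), 2 against 2 in each. *Kdm6b* lies at −0.24 and −0.29, and *Kmt2b*, *Kmt2c* and *Ash2l* probe A_55_P2088103 fall on both sides of 0.

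The wider H3K4 and trithorax pathway was read from 6 lists of 53 genes, of which 50 had a matched probe, with 68 probes tested. *Setd1b*, *Bod1l* and *Chd7* were not matched and were not analysed here. Of these, 4 were higher and 5 lower with a HOM father at an adjusted p below 0.05 in limma (13.2%, against 21% of all tested probes), and none passed the 2-fold limits. An unadjusted p below 0.05 was found for 18 of them (26.5%), against 34.8% of all tested probes. Their median change was −0.10. Other subunits of H3K4 methyltransferase complexes had 5 of 14 tested probes called (35.7%), 3 higher and 2 lower, with a median of −0.06. *Paxip1*, a subunit of the KMT2C and KMT2D complexes, rose from −2.97 ± 0.10 to −2.29 ± 0.15 (SD, n = 4), a change of 0.69 (adjusted p = 0.00189, limma). *Tasp1*, the protease that cleaves KMT2A and KMT2B, rose by 0.33 (adjusted p = 0.0154, limma), and *Ncoa6*, a coactivator in the KMT2C and KMT2D complexes, by 0.23 (adjusted p = 0.0192, limma). *Wdr82* and *Cxxc1*, subunits of the SETD1 complexes, changed by −0.28 (adjusted p = 0.0140, limma) and −0.22 (adjusted p = 0.0461, limma). *Cxxc1* lost its call in 7 of the 8 fits that left out 1 embryo, and *Ncoa6* without HET father replicate 3 (adjusted p = 0.0548, limma).

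Among 11 tested probes of other H3K4 methyltransferases, 1 was called (9.09%, against 21% of all tested probes). The called gene was *Smyd1*, a heart and skeletal muscle enzyme. Its probe A_51_P468055 measured 1.12, 1.25, 1.05 and 1.18 with a HOM father and 0.33, 0.21, 0.29 and 0.17 with a HET father. Every HOM father embryo was above every HET father embryo, with a change of 0.90 or 1.86-fold (SE 0.06, adjusted p = 0.000172, limma). The second *Smyd1* probe, A_55_P2062495, was dim and changed by −0.27 (SE 0.50, adjusted p = 0.745, limma). None of the 4 heart markers was higher with a HOM father at an adjusted p below 0.05, and *Myl7* changed by −0.25 (adjusted p = 0.0408, limma). The part of heart or muscle cells in the *Smyd1* change was not tested.

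No father call was made in limma at the 7 tested probes of H3K4 demethylases or the 3 probes of the other H3K27 demethylases. Of all tested probes, 21% were called and 34.8% had an unadjusted p below 0.05, which none of these had. *Kdm6a*, the X-linked relative of *Kdm6b*, measured −1.06 ± 0.20 with a HOM father and −0.74 ± 0.27 with a HET father (SD, n = 4; adjusted p = 0.182, limma). It was 0.35 higher in females than males (adjusted p = 0.762, limma). *Kdm5c*, an X-linked H3K4 demethylase, was 0.34 higher in females at the brighter of its 2 probes (adjusted p = 0.229, limma). Its dimmer probe gave a female minus male change of −0.02 (adjusted p = 0.990, limma). The father changes of these *Kdm5c* probes were −0.11 and 0.22. *Uty*, the Y-linked homologue of *Kdm6a*, was the 1 pathway gene called by sex, at probe A_55_P2134967. It was above background in all 4 males, at −3.67 ± 0.18, and in no female. The female minus male change was −3.66 (adjusted p = 0.00526, limma), and its size rests on female signals that were not above background. The other *Uty* probe, A_52_P345539, had a female minus male change of −3.26 and was not called (adjusted p = 0.0787, limma).

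Chromatin remodelling genes of the trithorax group had 3 of 25 tested probes called (12.0%), all lower, with a median of −0.16. Over all tested probes, 21% were called, 8.69% were called lower, and the median was −0.02. *Arid1a* and *Arid1b*, alternative DNA-binding subunits of the BAF remodelling complex, changed by −0.30 (adjusted p = 0.0171, limma) and −0.19 (adjusted p = 0.0241, limma) at 1 probe each. The second *Arid1a* probe changed by −0.04, and the other 2 *Arid1b* probes by −0.17 and −0.06, none of them called. *Arid1b* lost its call in 5 of the 8 fits that left out 1 embryo, and *Arid1a* without HET father replicate 3 (adjusted p = 0.0505, limma). *Actl6a*, an actin-related BAF subunit named after its value was seen, changed by −0.17 (adjusted p = 0.0434, limma), and lost its call in 7 of the 8 fits that left out 1 embryo. Known targets of KMT2A, KMT2B or menin had 9 tested probes with a median of −0.24, and none was called in limma. An unadjusted p below 0.05 was found for 2 of them (22.2%), both *Hox* probes, against 34.8% of all tested probes. The *Hox* probes of this list changed by −0.67 to −0.24 and the other targets by −0.11 to 0.23. This split was made after the values were seen. Of the 4 somite and presomitic mesoderm markers, *Msgn1* and *Tbx6* changed by −0.44 (adjusted p = 0.0408, limma) and −0.32 (adjusted p = 0.0359, limma) in the same embryos. *Meox1* changed by 0.13 and *Tcf15* by −0.16, neither of them called, and the part of these markers in the target values was not tested.

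**Figure D5:**
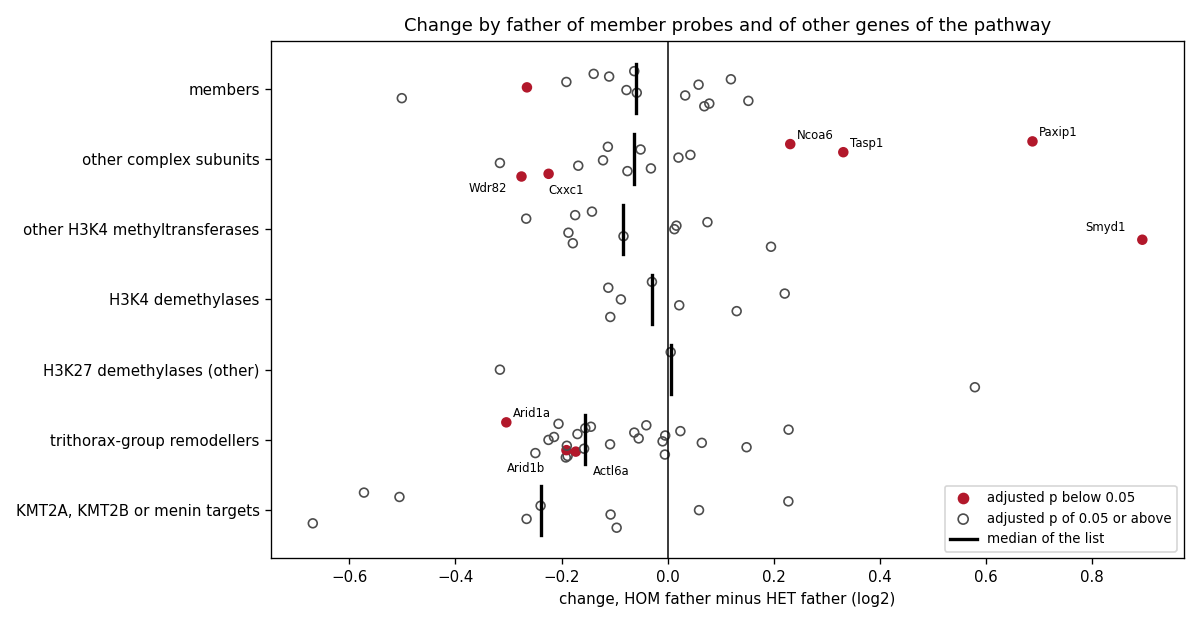
The change of each tested probe (HOM father minus HET father, log2) is plotted by list, with filled points for an adjusted p below 0.05 and a bar at the median of the list. The members centre on −0.06 with 1 filled point, *Smyd1* at 0.90 and *Paxip1* at 0.69 stand at the right, and the point at 0.58 is a Y-linked *Uty* probe, which is above background in males alone.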

How the data were processed

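RNA from 8 E8.5 embryos was hybridised to 1 Agilent SurePrint G3 Mouse GE array each, from 0.2 µg of total RNA. Per the labels, the authors used Agilent Feature Extraction (version 11.0.1.1 in the submitters' processing notes), and the deposited intensity of each spot is a background-subtracted, spatially detrended processed signal on a linear scale, not normalised between arrays. Deposited spot flags were other values of 0 or 1 and served as filters. The deposited series table held the same intensity values, to within 0.497%, and served as an alternative. Depth does not apply to arrays, and the number of embryos limits the precision.

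Signals were converted to log2 minus the 75th percentile of each array, without control and outlier spots, and spots of 1 probe were averaged. The tested probes (29732 of 55681, 53.4%) had, on at least 4 of 8 arrays, a signal well above background that also reached the 20th percentile of the array. RefSeq accessions named 27235 probes (48.9%). Tests used limma 3.58.1 in R 4.3.3 (lmFit and eBayes, two-sided), checked on simulated data, with exact permutation for probe pairs. Members, lists and tests were chosen with earlier results of these data known. The text names every member probe, *Eed*, *Kdm6a*, *Kdm5c*, up to 4 pathway genes each way by father (with *Actl6a* added after its value was seen), and every pathway gene called by sex. The normexp alternative used the median spot signal, since the scanner tables used here hold no mean signal column. The 19 alternatives covered scaling, background, filters, variance model, source table, sex, blocks and left-out embryos. Promoter sequences are RefSeq's.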

Additional observations from a re-analysis of the deposited data

Results flagged for a closer look

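In each father group of 4 embryos, the highest and the lowest embryo of every member probe were compared with their nearest neighbour, which gave 28 groups, and 2 stood apart. Chance flags about 1 in 20 groups, or 1.4 of 28. *Kmt2c* was at 1.50 in HET father replicate 2, and the other 3 HET father embryos were at 1.18 to 1.20. *Dpy30* probe A_55_P2136862 was at 2.79 in HOM father replicate 1, and the other 3 HOM father embryos were at 2.96. Neither gene was called by father with or without these embryos.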

How the results depend on the processing

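Slide and father cannot be told apart, sires are unnamed, and the 3 *Kmt2d* probes had the largest spread of the members within father groups, although all 14 were well above background. The members higher with a HOM father, those past the 2-fold limits, and the calls by sex and by interaction stayed at 0 under every alternative run. The number of members lower was 8 under median scaling, 2 under normexp correction, 2 under eBayes with trend and robust estimation, 0 without the filter on dim probes, 0 without HOM father replicates 2 and 3 together (chosen after seeing the data), and 1 to 2 when 1 embryo was left out (2 without HET father replicate 1). Their median change was 0.0081 under quantile normalisation, −0.25 under median scaling, −0.0095 without HOM father replicates 2 and 3, and −0.080 to −0.0087 leaving out 1 embryo. Pathway probes higher numbered 2 under median scaling, without the dim filter and without HOM father replicates 2 and 3, and 3 to 5 leaving out 1 embryo. Pathway probes lower numbered 33 under median scaling, 9 under normexp and under trend and robust estimation, 0 without the dim filter, 3 with the source number as a random block, 1 without HOM father replicates 2 and 3, and 2 to 6 leaving out 1 embryo. The number of all tested probes called, 6245, became 12689 under median scaling and 3110 without the dim filter, whose higher share was 85.9%. The normexp fit had 50.7% higher. Median scaling takes another constant from each array than the 75th percentile does, and it moved every member change by the same −0.19. Why the father groups differ in this constant was not tested. The cause of the other shifts was not tested either, except that removing the filter tests more probes. The random block used a consensus correlation of 0.302 between embryos sharing a source number.

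Signs reversed under median scaling for *Kmt2b* (−0.16), *Kmt2d* A_55_P2136533 (−0.071), *Ash2l* A_55_P2088103 (−0.13) and A_51_P192344 (−0.11), *Rbbp5* (−0.038), *Dpy30* A_51_P185108 (−0.12) and *Eed* (−0.18). They reversed under normexp for *Kmt2b* (−0.098) and *Men1* A_66_P137048 (0.024), and under quantile normalisation for *Wdr5* (0.0026) and that *Men1* probe (0.014). Leaving out 1 embryo gave −0.087 to 0.019 for *Kmt2c*, −0.00013 to 0.20 for *Kmt2d* A_55_P2136533, and −0.013 to 0.032 for *Eed*. Leaving out HOM father replicates 2 and 3 reversed *Kmt2d* A_55_P2136526 (0.013) and *Eed* (−0.0072). The mean over probes reversed *Kmt2d* (−0.19) and *Dpy30* (−0.020). None of these values was called.

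Whether the replicate numbers of the labels pair the embryos cannot be told from so few embryos. Deviations from the group means correlated at 0.19, −0.086, −0.13 and 0.15 for numbers 1 to 4. HOM father replicates 1 and 4 correlated best with their own number, and replicates 2 and 3 with another. The paper describes the sires as littermate pairs of brothers, and the labels do not link the embryos to these pairs. With the replicate block, 3484 of all probes were called (80.8% higher), pathway probes numbered 2 higher and 2 lower, and *Kdm6b* kept its change of −0.27 with an adjusted p of 0.0466 in limma. The sex difference of *Uty* was −3.14 with the block, with an adjusted p of 0.0980 in limma. *Smyd1* and *Paxip1* kept their calls under all 19 alternatives, and *Tasp1*, *Ncoa6*, *Arid1a*, *Wdr82*, *Cxxc1*, *Arid1b* and *Actl6a* each lost the call under at least 2.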
